A study of Mus musculus with 4 samples.

Results

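Macrophages are the tissue phagocytes of the embryo, and this account follows 10 genes used as their markers (Csf1r, Ptprc, Cx3cr1, Mrc1, Stab1, F13a1, C1qa, C1qb, Lyz2 and Pf4) in mouse forelimbs with and without Shox2. The genes were chosen by name, as probe sets of an expression array. Of the 10 listed, 9 had a named probe set among the 25206 of the deposited table. The expression of Lyz2, which encodes a lysozyme of myeloid cells, was not analysed here.

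The forelimbs came from C57BL/6 embryos at stage E11.5. The groups were wild type and Shox2 knockout (SHOX2-KO in the labels), with 2 arrays each, and the arrays carry the title numbers 48 and 50 in both groups. Each array measured total RNA of a pool of limbs of the same genotype, described as 3 to 4 forelimbs in the sample labels and as RNA of 3 to 4 embryos in the series' design text, from 2 pregnancies. Shox2 encodes a homeodomain transcription factor of the proximal limb, and the study asked what differs in the forelimb when it is lost. The sources used here do not say how the knockout allele was made or whether any cell type was spared. In bulk tissue, fewer cells of a type and less RNA per cell cannot be told apart.

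The first macrophages of an embryo come from the yolk sac, enter the limb buds with the early circulation and depend on signalling through the receptor encoded by Csf1r. They take up dying cells, and in the limb they are known for clearing the tissue between the digits at later stages. C1q, the starting protein of the classical complement cascade, is made largely by macrophages and marks debris for uptake. Several genes of the list are also used by other cells: Stab1 and Mrc1 by some endothelial cells, and Pf4 and F13a1 by megakaryocytes and platelets.

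Depth of signal and the whole series can be described briefly. Log2 values of single probe sets lay between 5.04 and 14.12 with a median of 5.89, and precision was limited by the number of arrays. Every SE given here is limma's moderated SE, which combines a gene's own spread between pools with that over all tested genes. The Shox2 probe set read 10.57 and 10.37 in the wild-type pools and 9.58 and 8.88 in the knockout pools, a log2 difference of -1.24 ± 0.21 (SE; limma, adjusted p = 0.322). Where its probes lie relative to the deleted part is not given. Of 14095 genes tested, limma called 3 at an adjusted p under 0.05, which is 0.0213%. All 3 are Y-linked: Eif2s3y, Uty and Kdm5d, with log2 differences of 4.29, 4.15 and 3.48. These Y-linked genes read 5.08 to 5.56 in the wild-type pools and 8.83 to 9.65 in the knockout pools. Xist differed by -1.01, so the genotypes differed in sex-linked signal as well. With these pools, sex and genotype cannot be told apart in the marker values, and the part of sex was not tested. Prrx1, Prrx2, Tbx5 and Twist1, transcription factor genes of limb mesenchyme, stood far above the floor described next on all 4 arrays, as the tissue label would have it; Prrx1 read between 12.66 and 12.88.

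Because the table gives no detection calls, a floor was taken from 1354 probe sets of olfactory and vomeronasal receptors, which belong to sensory neurons. The 95th percentile of these probe sets lay at a log2 value between 5.57 and 5.61, depending on the array. Of the 9 markers, 8 stood above this floor on all 4 arrays, as did 57.4% of all named genes. Ptprc, which encodes the CD45 phosphatase of all leukocytes, stood below it on all 4. With the 99th percentile as the floor, 4 markers were above it on every array (Cx3cr1, Stab1, C1qb and Pf4). All marker values lay between 5.36 and 7.64.

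**Figure D1:**
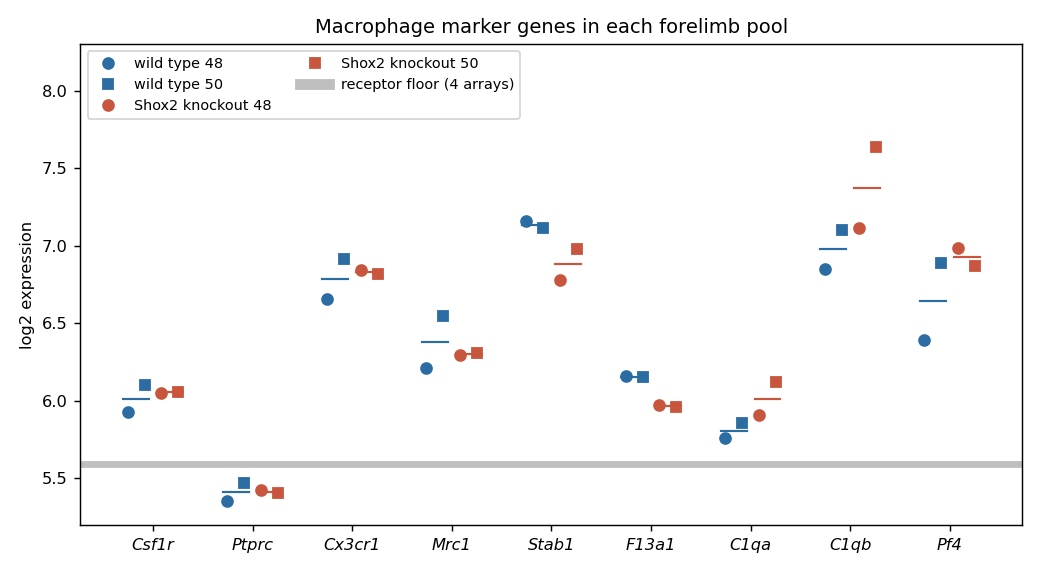
Log2 expression (vertical axis) of the 9 measured markers on each array: blue for wild type, red for knockout, circles for number 48, squares for number 50, short lines for group means (n = 2 pools), and a grey band for the receptor floor between 5.57 and 5.61. Ptprc lies under the band, and the genotypes are separate in Stab1, F13a1, C1qa and C1qb.

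Csf1r encodes the receptor for the macrophage growth factors CSF1 and IL34. It read 5.93 and 6.10 in the wild type (arrays 48 and 50) and 6.05 and 6.06 in the knockout. Both knockout values fell between the wild-type ones, so the groups overlapped. The log2 difference, knockout minus wild type, was 0.041 ± 0.091 (SE, n = 2 pools per genotype; limma, adjusted p = 0.909). Its ligand gene Csf1 read 6.34 and 6.40 in the wild type and 6.03 and 6.04 in the knockout. The Csf1 groups did not overlap, and the difference of -0.33 ± 0.079 missed the threshold (limma, adjusted p = 0.322). Il34 stayed under the floor on all 4 arrays. Of the 6 further genes of the ligand and receptor list, one of which (Cx3cl1) is described with its receptor, Tgfb1 (mean 7.88) and the cytokine receptor gene Csf2ra (mean 6.91) were the brightest, Csf2rb differed by 0.18 ± 0.093 (limma, adjusted p = 0.560), and Csf3r and Flt3 were not above the floor on every array. In that list limma called 0 of the 5 tested genes, and 1, Csf1, had an unadjusted p under 0.05, as did 10.2% of all tested genes.

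Cx3cr1 encodes the receptor for fractalkine and is found on yolk sac-derived macrophages and microglia. It read 6.66 and 6.91 in the wild type and 6.84 and 6.82 in the knockout. The wild-type pools again stood on both sides of the knockout pools, with a difference of 0.047 ± 0.10 (SE; limma, adjusted p = 0.911). The fractalkine gene Cx3cl1 was above the floor on 1 array only, wild type 48. Ptprc read 5.36 and 5.47 in the wild type and 5.42 and 5.41 in the knockout, and was too dim to be tested. This pan-leukocyte gene thus had no level above the floor in either genotype.

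The scavenger receptor genes differed from each other. Mrc1 encodes the mannose receptor of tissue macrophages and read 6.21 and 6.55 in the wild type and 6.30 and 6.31 in the knockout. Its genotypes overlapped, at a difference of -0.077 ± 0.12 (SE; limma, adjusted p = 0.865). Stab1 encodes stabilin-1, an endocytic receptor of macrophages and of some endothelium. It read 7.16 and 7.11 in the wild type and 6.78 and 6.98 in the knockout. Both knockout pools were lower, with a gap of 0.13 between the nearest pools of the genotypes. The Stab1 difference was -0.26 ± 0.096 (SE), a 1.19-fold lower level with an unadjusted p of 0.0333 that missed the threshold once adjusted over all genes (limma, adjusted p = 0.442). The Stab1 value became -0.15 when knockout array 48 was left out.

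Of 16 endothelial genes measured, 13 had lower means in the knockout, as did 50.4% of all tested genes, with a median log2 difference of -0.13 against -0.0010 over all tested genes. Limma called 0 of the 15 tested, and 4 were lower at an unadjusted p under 0.05, where 5.0% of all tested genes were. Kdr, the main VEGF receptor gene, differed by -0.28 ± 0.083 and Tek, the angiopoietin receptor gene, by -0.27 ± 0.087 (SE; limma, adjusted p = 0.389 and 0.406). Cdh5 and Emcn, the brightest, differed by -0.096 and -0.25, and Egfl7, Erg and Sox17 had higher means in the knockout (0.12, 0.058 and 0.061). The summed linear level of the list lay between 6802 and 7168 in the knockout and between 7485 and 7730 in the wild type. Stab2, the close relative of Stab1, was under the floor on all 4 arrays. The part of endothelial RNA in the Stab1 value was not tested.

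The complement genes C1qa and C1qb encode chains of C1q and lie next to C1qc in the reference annotation. C1qb read 6.85 and 7.10 in the wild type and 7.11 and 7.64 in the knockout. Both knockout pools were higher, but knockout 48 exceeded wild type 50 by only 0.014. The difference was 0.40 ± 0.18 (SE, 1.32-fold), the largest among the 9 markers, and it did not pass (limma, unadjusted p = 0.0608, adjusted p = 0.509). Without knockout array 50 it was 0.14, and without knockout array 48 it was 0.66. With the title number added to the fit, C1qb was among 382 genes called (limma, adjusted p = 0.0471). No label ties that number to a pregnancy. C1qa read 5.76 and 5.86 in the wild type and 5.91 and 6.12 in the knockout, with no overlap and a difference of 0.21 ± 0.099 (SE; limma, adjusted p = 0.536), which was 0.10 without knockout array 50. Within the number 50 the C1qb difference was 0.54, a size reached by 1.06% of tested genes in that pair, and within the number 48 it was 0.26, reached by 13.2%. C1qc, whose product joins the same protein, was under the floor on all 4 arrays (5.43 to 5.52), so the probe sets of the 3 chains did not give the same picture.

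F13a1 encodes the A subunit of coagulation factor XIII, which is carried by tissue macrophages and by platelets. It read 6.16 and 6.15 in the wild type and 5.98 and 5.96 in the knockout. The pools of a genotype agreed closely and the genotypes were separated by 0.18. The difference was -0.19 ± 0.077 (SE, 1.14-fold lower), at -0.18 within 48 and -0.19 within 50. It had an unadjusted p of 0.0467 and did not pass (limma, adjusted p = 0.481).

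Pf4 encodes platelet factor 4, a chemokine of megakaryocytes that embryonic macrophages also express. It read 6.39 and 6.89 in the wild type and 6.99 and 6.87 in the knockout. Wild type 48 alone was low, and the other 3 pools lay within a narrow band. The difference within the number 48 was 0.59, a size reached by 0.887% of tested genes in that pair, whereas within the number 50 it was -0.020. Over all 4 arrays it was 0.29 ± 0.16 (SE; limma, adjusted p = 0.593), and without wild-type array 48 it was 0.040 and without wild-type array 50 it was 0.53. Ppbp, the platelet chemokine gene beside Pf4 in the reference annotation, read 10.29 and 10.39 in the wild type and 9.99 and 9.96 in the knockout, a difference of -0.37 ± 0.082 that did not pass (limma, adjusted p = 0.322).

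Of 12 megakaryocyte and platelet genes measured, 9 had lower means in the knockout, as did 50.4% of all tested genes. The median difference of the list was -0.091. Of the 11 tested, limma called 0 and 3 were lower at an unadjusted p under 0.05, against 5.0% of all tested genes. These were Ppbp, Plek (-0.43 ± 0.12), which encodes pleckstrin, and the integrin gene Itgb3 (-0.20 ± 0.081). Gp9, part of the von Willebrand factor receptor, differed by -0.17 ± 0.16 with overlapping genotypes. The summed linear level of the list was 1706 to 1718 in the knockout and 1986 to 2131 in the wild type, most of it from Ppbp. Without Ppbp it was 689 to 719 and 733 to 785. The part of platelet RNA in the F13a1 and Pf4 values was not tested.

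Upstream sequence is shown for the markers whose genotypes did not overlap, and for Pf4. PU.1, the product of Spi1, is the transcription factor on which macrophages depend, and it binds purine-rich sites with the core GAGGAA. The 250 bases before each transcript start were searched for GAGGAA on both strands (TTCCTC on the other), in RefSeq promoter windows of build GRCm38.p6. Of the 10 listed genes, 8 had a window, all but C1qa and Csf1r. Lyz2 is among these 8, and its window lacked the core. The core was found in 6 of these 8 genes, in 6 of their 10 windows, and in 23.3% of the 32851 windows of all genes. Capitals mark the core. F13a1 had a further window, not shown, at chr13:37049214-37049463 on the minus strand, which lacked the core.
C1qb, chr4:136886201-136886450, minus strand: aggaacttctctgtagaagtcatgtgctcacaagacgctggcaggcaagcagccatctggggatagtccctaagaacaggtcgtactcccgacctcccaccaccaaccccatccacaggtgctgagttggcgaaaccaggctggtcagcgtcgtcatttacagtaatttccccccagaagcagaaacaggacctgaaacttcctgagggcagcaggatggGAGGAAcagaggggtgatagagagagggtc
Stab1, chr14:31168642-31168891, minus strand: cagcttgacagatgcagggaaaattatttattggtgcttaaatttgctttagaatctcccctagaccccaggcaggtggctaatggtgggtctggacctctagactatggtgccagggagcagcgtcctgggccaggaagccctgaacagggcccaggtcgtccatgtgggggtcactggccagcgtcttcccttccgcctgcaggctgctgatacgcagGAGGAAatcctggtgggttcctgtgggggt
F13a1, chr13:37050245-37050494, minus strand, the farther upstream of its 2 starts: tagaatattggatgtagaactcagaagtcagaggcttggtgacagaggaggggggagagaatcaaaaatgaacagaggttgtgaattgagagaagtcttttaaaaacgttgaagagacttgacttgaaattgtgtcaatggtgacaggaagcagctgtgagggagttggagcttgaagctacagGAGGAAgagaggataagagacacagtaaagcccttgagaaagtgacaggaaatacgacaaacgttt
Pf4, chr5:90772185-90772434, plus strand: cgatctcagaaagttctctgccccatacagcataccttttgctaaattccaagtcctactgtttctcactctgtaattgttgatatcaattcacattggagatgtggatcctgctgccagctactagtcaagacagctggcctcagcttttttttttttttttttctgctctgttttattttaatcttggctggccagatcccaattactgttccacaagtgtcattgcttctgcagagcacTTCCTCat
The longer form GAGGAAGT, which contains the core, occurred in 1 of the 10 windows, that of Pf4 (as ACTTCCTC near its end), and in 2.44% of all windows. A match of letters is a description and shows no binding. Spi1 itself read 6.27 and 6.39 in the wild type and 6.26 and 6.36 in the knockout, a difference of -0.020 ± 0.088 (SE; limma, adjusted p = 0.959).

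Over the 9 markers measured, the main genotype fit, without the title number, called 0 of the 8 tested (limma, adjusted p from 0.442 to 0.911). At an unadjusted p under 0.05 there were 2 of 8, Stab1 and F13a1, both lower in the knockout, and 10.2% of all tested genes. None was 1.5-fold different, a size that 0.404% of all tested genes reached. The genotypes did not overlap in 4 of the 8, with 2 higher (C1qa and C1qb) and 2 lower (Stab1 and F13a1). Among all tested genes, 22.1% did not overlap with the knockout higher and 19.9% with the knockout lower. The median difference over the 9 measured markers was 0.041, against -0.0010 over all tested genes. The summed linear level of the 9 ran from 801 to 875 in the knockout and from 745 to 850 in the wild type, which overlap.

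The pairs of arrays with the same title number did not show the same picture. Between the arrays numbered 48, 7 of 9 markers had the higher value in the knockout, and between those numbered 50, 2 of 9 did. Of the 8 tested, these were 6 and 2, where 50.3% and 50.5% of all tested genes were higher in the knockout. The median difference of the 9 markers was 0.13 within 48 and -0.062 within 50. Csf1r, Ptprc, Cx3cr1, Mrc1 and Pf4 were higher in the knockout within 48 and lower within 50, C1qa and C1qb were higher within both (32.1% of all tested genes), and Stab1 and F13a1 were lower within both (31.0%). Opposite signs of that kind were found in 4 of the 8 tested markers and in 18.0% of all tested genes. With 1 array per genotype and number, the difference between the pairs could not be tested.

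**Figure D2:**
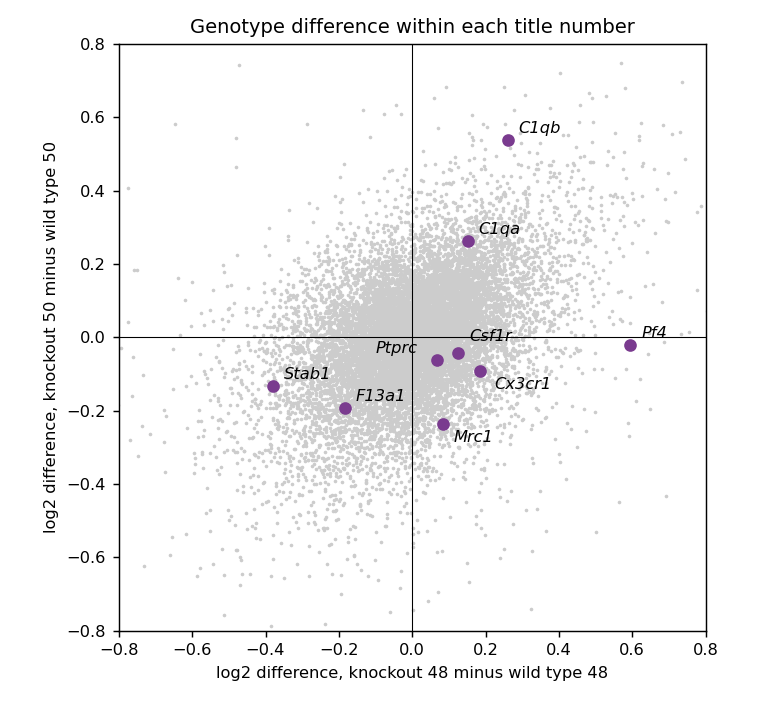
Log2 difference, knockout minus wild type, within number 48 (horizontal axis) and within number 50 (vertical axis), for 14095 tested genes (grey) and the 9 measured markers (purple); 64 genes lie outside the axes. C1qa and C1qb lie at the upper right, Stab1 and F13a1 at the lower left, and the other 5 markers at the lower right, with Pf4 at 0.59 and -0.020.

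Wild-type array 48 had the lowest value of the 4 arrays in 7 of 9 markers, all but Stab1 and F13a1. It was the lowest in 6 of the 8 tested markers and in 28.2% of all tested genes. Within the wild type, 7 of 9 markers were higher on array 50 than on array 48, with a median of 0.17, and within the knockout 5 of 9 were, with a median of 0.0061. Of the 8 tested these were 6 and 5, where 50.9% and 52.3% of all tested genes were higher on array 50. Without wild-type array 48 the median genotype difference of the markers was -0.053, and without wild-type array 50 it was 0.13. Compared by title number over both genotypes, 0 of 8 markers were called, as were 0.00% of all tested genes, and 0 of 8 had an unadjusted p under 0.05 (limma; adjusted p from 0.761 to 0.987), where 6.87% of all tested genes did. The largest such differences, 50 minus 48, were 0.39 ± 0.19 for C1qb and 0.19 ± 0.19 for Pf4 (SE). In 2 of the 9 markers, Csf1r and Mrc1, both arrays numbered 50 exceeded both numbered 48; 18.3% of all tested genes did so. The reverse order held in 0 of the 9 and in 18.6% of all tested genes.

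Further macrophage genes gave a mixed picture of the label. Of 28 other macrophage genes measured, 13 stood above the floor on all 4 arrays, against 57.4% of all named genes. A further 11 stood above it on none. Those on none included Cd14, Mpeg1, Itgam, Aif1, Folr2, Timd4 and Cd163, which encode receptors and effectors of macrophages. Adgre1, which encodes the F4/80 antigen, read between 5.61 and 5.76, just above it. The brightest were Grn, which encodes progranulin (10.02 to 10.16), and the uptake receptor gene Mertk (9.55 to 9.82), both of which other tissues also express. Others above the floor on all 4 arrays included Laptm5 (7.64 to 8.02), Cd68 (7.50 to 7.77), Coro1a (7.33 to 7.66) and Lyve1 (6.39 to 6.78). These values therefore describe the listed genes and not a macrophage population measured as such.

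Limma called 0 of the 15 other macrophage genes tested, and 2 were higher in the knockout at an unadjusted p under 0.05, where 5.19% of all tested genes were. They were Mertk (0.24 ± 0.078; limma, adjusted p = 0.406) and Tmem119 (0.22 ± 0.092; limma, adjusted p = 0.481), a gene of microglia that bone-forming mesenchyme also expresses. Over the 28 genes, 10 had higher and 18 lower means in the knockout, and the median was -0.040. Of all tested genes, 49.5% had higher and 50.4% lower means. Fcer1g and Tyrobp, signalling adaptors of myeloid receptors, stood above the floor on every array and differed by -0.23 ± 0.16 and 0.11 ± 0.080, with Fcer1g overlapping between genotypes.

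Of 10 macrophage transcription factor genes measured, 6 were above the floor on all 4 arrays, as were 57.4% of all named genes. Of the 7 tested, 0 were called by limma or had an unadjusted p under 0.05. Zeb2 (8.41 to 8.63) and Maf (7.53 to 7.84) were the brightest; Zeb2 differed by -0.13 ± 0.087 and Nr1h3, the gene of a lipid-sensing nuclear receptor, by -0.090 ± 0.084. Irf8, needed for yolk sac-derived macrophages, read 5.62 to 5.69, just above the floor. Ikzf1 was above it on 1 array only, and Cebpa on no array. Against 57.4% of all named genes, 2 of the 8 complement genes measured were above the floor on every array. These were Cd93 (-0.10 ± 0.082), whose product is an endothelial and myeloid receptor, and the properdin gene Cfp (-0.13 ± 0.14); C1ra differed by 0.097 ± 0.098, and 0 of the 3 tested were called or had an unadjusted p under 0.05 (limma).

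**Figure D3:**
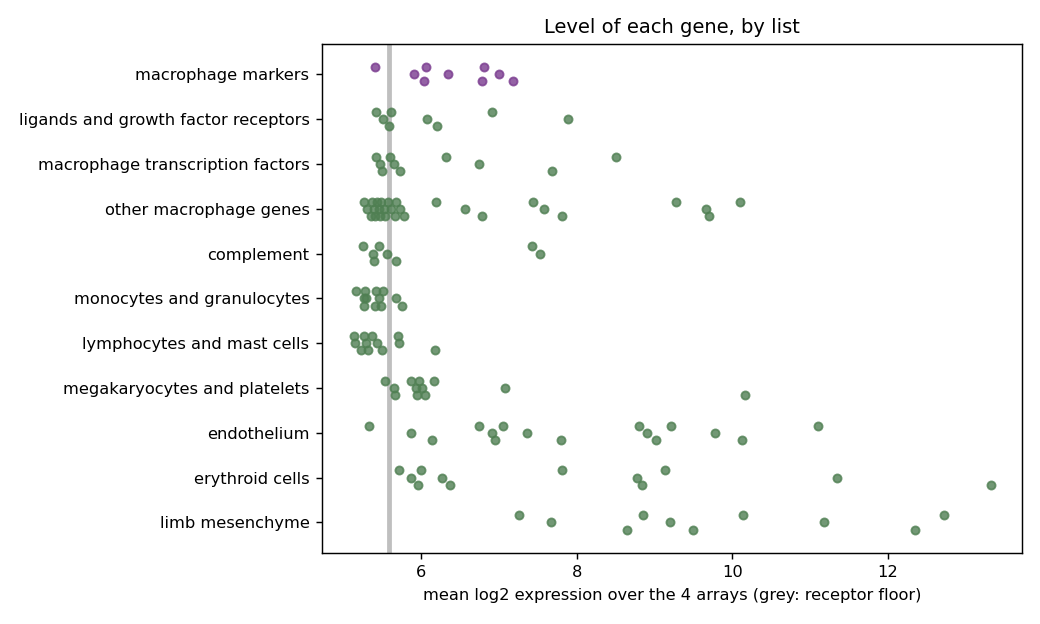
Mean log2 expression over the 4 arrays (horizontal axis) of each measured gene, arranged by list; points are offset vertically only to keep them apart, and the grey band is the receptor floor between 5.57 and 5.61. Most genes of granulocytes, monocytes, lymphocytes and mast cells lie at or under the band, the markers (purple) lie between 5.41 and 7.18, and limb mesenchyme genes lie at or above 7.26.

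Genes of granulocytes, monocytes, lymphocytes and mast cells were mostly at or under the floor. Of 12 monocyte and granulocyte genes, 10 were above it on no array, among them Lyz1, the close relative of Lyz2, and Ccr2, the receptor gene of circulating monocytes. Prtn3 and Mpo, proteases and peroxidase of granules, were the brightest at 5.72 to 5.87 and 5.60 to 5.75 and differed by -0.077 and 0.057. Of 12 lymphocyte and mast cell genes, 9 were above it on no array; the mast cell protease gene Cpa3 read 5.96 to 6.40, and Rag1 and Nkg7 differed by -0.0076 and 0.10. Limma called 0 of the 2 and 0 of the 3 tested genes of these lists, and 0 had an unadjusted p under 0.05. The median differences were 0.0080 and 0.00020.

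Erythroid genes, which like macrophages arrive with the circulation, were lower in the knockout by their means in 10 of 12 cases. Of all tested genes, 50.4% were lower. The erythroid median was -0.13. The summed linear level of the list was 14470 to 14520 in the knockout against 14740 to 16112 in the wild type, most of it from Hbb-y. Of the 12, limma called 0, and 4 were lower at an unadjusted p under 0.05, against 5.0% of all tested genes. Hemgn differed by -0.31 ± 0.084 and Slc4a1, the anion exchanger gene of red cells, by -0.34 ± 0.099, while the embryonic globin genes Hbb-y and Hba-x differed by -0.12 and 0.14. All 10 limb mesenchyme genes had higher means in the knockout, as did 49.5% of all tested genes, with a median of 0.17. Limma called 0 of them, and 4 were higher at an unadjusted p under 0.05, against 5.19% of all tested genes. Lhx2 and Hand2 differed by 0.45 ± 0.084 and 0.41 ± 0.10, and the brightest, Prrx1 and Tbx5, by 0.13 and 0.024. The part of these lists in the marker values was not tested.

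**Figure D4:**
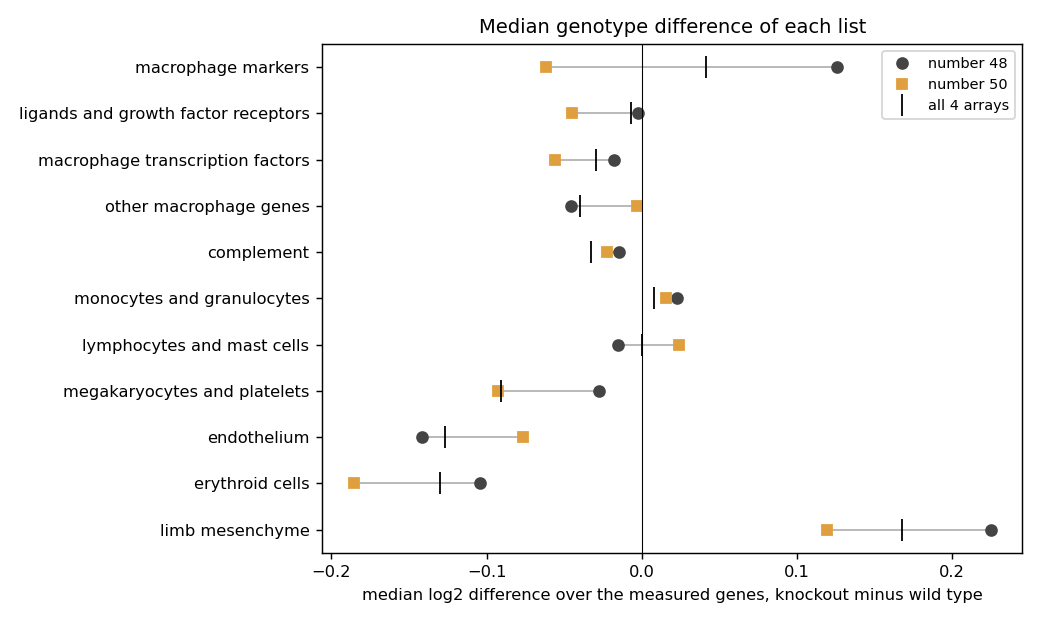
Median log2 difference, knockout minus wild type, over the measured genes of each list (horizontal axis), within number 48 (circles), within number 50 (squares) and over all 4 arrays (vertical strokes). The macrophage markers lie on either side of 0, at 0.13 and -0.062. Endothelium, erythroid cells and platelets lie below 0 and limb mesenchyme above 0 in both pairs. Ligands and receptors, macrophage transcription factors, other macrophage genes and complement also lie below 0 in both pairs, between -0.056 and -0.0023. Monocytes and granulocytes lie above 0 in both, at 0.023 and 0.016. Lymphocytes and mast cells lie on either side, at -0.015 and 0.024.

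The genes nearest to the markers in pattern were found from the mean centred profile of the 8 tested markers, which was -0.13 for wild type 48, 0.068 for wild type 50, -0.021 for knockout 48 and 0.078 for knockout 50. Among 7447 other tested genes that varied at least as much over the 4 arrays, the smallest root mean square differences from it belonged to Ly6g6g (0.0020), Eif2ak4 (0.0063), Nrp2 (0.0065), Sdc1 (0.0080) and Flrt2 (0.011). Eif2ak4 encodes a kinase of the amino acid response, Nrp2 a semaphorin and VEGF co-receptor, Sdc1 a cell surface proteoglycan and Flrt2 a guidance protein. With 4 arrays and a profile range of 0.20, likeness of this kind is a description of these pools.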

How the data were processed

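The authors deposited 1 table of log2 expression values per probe set and array; the scale was read from the values. The sorted values of the 4 arrays differed by at most 0.00171, so the deposited values were quantile normalized across arrays and were used as they stand. Per the labels' protocols, TRIzol total RNA of pooled limbs was made into biotinylated cRNA by the Affymetrix procedure; the sources used here name no background correction, summarisation or software. Which pool came from which pregnancy was not stated. The p-values and SE rest on limma's moderated variance. It combines a gene's own spread between these pools with the spread over all tested genes.

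A platform annotation named 23185 of 25206 probe sets, 1 gene each. The 14095 named genes with a mean log2 value of at least 5.60, the percentile 40 of all probe sets, were tested, and 9090 dimmer ones were not. Genotypes, and title numbers 48 and 50, were compared with limma 3.58.1 (lmFit and eBayes, R 4.3.3), two-sided, with Benjamini-Hochberg adjustment and a threshold of 0.05. Differences are of means over n = 2 pools. The procedure was tested on simulated data. Sums are of linear values. Plots used matplotlib 3.10.9 in Python 3.11.15.

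The members, the 14 gene lists and the tests were chosen with earlier results of these data known. Named genes were all measured members, Shox2, sex-linked genes, from each list the 2 brightest and the 2 with the smallest unadjusted p, and the 5 nearest in pattern; other named genes were picked for their role after their values were seen. Some listed genes had no named probe set, and their expression was not analysed here.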

Additional observations from a re-analysis of the deposited data

How the results depend on the processing

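Of the 8 tested markers, 0 were called between genotypes under any alternative but the replicate block, which adds the title number to the fit. With it, C1qb was called (0.40; limma, adjusted p = 0.0471, against 0.0471 to 0.960 over its alternatives), making 1 marker, and 382 genes were called in all, 203 higher and 179 lower. No label ties a number to a pregnancy or day. Across genes, the difference 50 minus 48 in the knockout correlated with that in the wild type at 0.39, a value from only 2 pairs. Leaving out each array in turn gave 3 to 5 genes called between genotypes, with 5 without knockout array 48 and 5 without wild-type array 48; the lone array was taken to vary as much as the pair. The difference then ran from -0.046 to 0.13 for Csf1r and from -0.081 to 0.17 for Cx3cr1, negative without wild-type array 48, and from -0.24 to 0.090 for Mrc1, positive without wild-type array 50. Between title numbers, genes called numbered 0 to 2 with an array left out (2 without knockout array 48 and 2 without wild-type array 48), 10 with an intensity trend and 141 with genotype as a covariate; 0 markers were called in each. These differences ran from -0.11 to 0.27 for Stab1, from -0.11 to 0.086 for F13a1 and from -0.11 to 0.48 for Pf4. The count of 8 markers above the floor on all 4 arrays was 4 at the 99th percentile and 8 at the 90th. At the 90th, Ptprc was above the floor on wild-type array 50. No filter, median centring, quantile normalization, an intensity trend, a robust fit and the unnamed probe sets changed no tested marker's direction or call, nor did a filter at percentile 60 for the 4 markers that passed it (Cx3cr1, Stab1, C1qb and Pf4), whose median was 0.17. How far values near the floor, such as those of Ptprc and C1qa, understate differences was not tested.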

Other observations

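Genes for the clearance of dying cells, the task for which limb macrophages are best known, ranged from dim to bright in these forelimbs. All 10 measured genes of that list stood above the receptor floor on every array, as did 57.4% of all named genes. Lrp1, an endocytic receptor gene, read 10.59 to 10.77, and Mfge8, which encodes a bridge between dying cells and phagocytes, read 9.95 to 10.13. Axl, a receptor gene of the same family as Mertk, read 9.63 to 9.76. The dimmest by mean were Gas6 (6.18), Elmo1 (6.79), Rac2 (6.96) and Pros1 (7.24). The part of macrophages in these levels was not tested. Limma called 0 of the 10 between genotypes. An unadjusted p under 0.05 was found in 10.2% of all tested genes and in 1 of the 10. That gene was Gas6, whose product is the shared ligand of Axl and Mertk; it read 6.29 and 6.28 in the wild type and 6.04 and 6.12 in the knockout, a difference of -0.21 ± 0.079 (SE; limma, adjusted p = 0.455). Elmo1, an engulfment adaptor gene, differed by -0.17 ± 0.093, and the list's median was -0.012.

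Close relatives of the markers had their own levels. Mrc2, the relative of Mrc1, read 9.07 to 9.25 and differed by 0.11 ± 0.085 (SE; limma, adjusted p = 0.713). The growth factor receptor genes Pdgfra (12.26 to 12.30), Pdgfrb (10.69 to 10.96) and Kit (8.18 to 8.47), relatives of Csf1r, differed by -0.016, -0.20 and 0.21, and the phosphatase gene Ptprs (10.98 to 11.09) by 0.050. F13b, Flt3 and Lyz1 were above the floor on no array. Of 13 relatives measured and 7 tested, limma called 0; 1 higher in the knockout (Kit) and 2 lower (Ppbp and Pdgfrb) had an unadjusted p under 0.05.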
